A study of Homo sapiens with 4 samples.

Results

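Long noncoding RNAs with known roles in cancer cells were examined in AGS and MKN1, established human cell lines derived from gastric carcinomas. The 10 transcripts MALAT1, NEAT1, GAS5, SNHG1, TUG1, PVT1, H19, MEG3, UCA1 and HOTAIR were chosen by name, for what is known of them in tumours. Earlier results of these data were known when the choice was made. Each transcript matched 1 of the 57815 rows of the deposited expression table. There were 4 groups of 1 library each, namely MKN1 with an siRNA against the homeobox transcription factor HOXB9 (siHOXB9), MKN1 with a scrambled control siRNA (siScramble), AGS with siHOXB9 and AGS with siScramble. All 4 had been transfected with Lipofectamine 2000, and the labels give the genotype of the siScramble cells as WT and that of the siHOXB9 cells as HOXB9 knockdown. The labels give no time after transfection, no number of siRNA sequences and no second culture, so within a line every value stands on 1 library per group and the second line is the only repeat of the knockdown.

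These transcripts work as RNA. MALAT1 gathers in nuclear speckles, the stores of splicing factors, and NEAT1 is the scaffold of paraspeckles, nuclear bodies that hold RNA-binding proteins. GAS5 and SNHG1 are spliced hosts of small nucleolar RNAs, whose mature exons are degraded when they are translated, and PVT1 lies beside MYC and is often amplified with it. H19 and MEG3 are imprinted and expressed from the maternal chromosome. HOTAIR is transcribed from the HOXC cluster on the strand opposite to the HOXC genes, and UCA1 was named for its abundance in urothelial cancer.

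MALAT1 and NEAT1 are shown first because the libraries were made from RNA bound to poly-T beads. The mature 3′ ends of MALAT1 and of the long NEAT1 isoform are cut by RNase P and carry no added poly(A) tail. They end in an A-rich stretch encoded in the genome, which pairs with U-rich stretches upstream. The 2 ends below are in DNA letters from GENCODE release 29 transcripts, in GRCh38, on the forward strand of chromosome 11, at chr11:65506027-65506116 for MALAT1 and chr11:65445451-65445540 for NEAT1. Each is 90 bases long, and the capitals mark the U-rich word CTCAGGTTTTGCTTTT and the A-rich word AAAAAGCAAAA, which both ends share.
MALAT1: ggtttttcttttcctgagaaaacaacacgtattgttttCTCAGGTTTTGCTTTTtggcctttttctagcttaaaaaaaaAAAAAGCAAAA
NEAT1: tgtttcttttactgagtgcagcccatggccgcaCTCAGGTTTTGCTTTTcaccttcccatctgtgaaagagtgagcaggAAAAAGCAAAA
The annotated MALAT1 transcript of 8708 bases goes on for another 353 bases beyond this stretch, and the NEAT1 transcript of 22743 bases ends with it. How far the selection on poly-T beads set the levels of these transcripts was not tested.

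GAS5 and SNHG1 belong to the genes whose RNA can start with a pyrimidine tract (5′TOP), as ribosomal protein genes do. The first 30 bases of an annotated transcript of each are shown with the leading pyrimidines in capitals, at chr1:173867960-173867989 and chr11:62855856-62855885 of GRCh38, both on the reverse strand.
GAS5: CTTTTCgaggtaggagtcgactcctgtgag
SNHG1: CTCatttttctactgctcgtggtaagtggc
The leading run had 6 pyrimidines in this GAS5 transcript and 3 in this SNHG1 transcript, so the SNHG1 run is short. The same first 10 bases began 6 of the 29 annotated GAS5 transcripts and 1 of the 25 annotated SNHG1 transcripts.

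H19 is shown because it had the widest difference with siHOXB9 in AGS. An exon of H19 also holds the precursor of miR-675. The mature arms of miR-675 are given from RefSeq (GRCh38.p14, reverse strand). They lie at chr11:1996800-1996822 and chr11:1996768-1996787, with the seed, bases 2 to 8, in capitals. Levels of miR-675 were not analysed here.
hsa-miR-675-5p: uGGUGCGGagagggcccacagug
hsa-miR-675-3p: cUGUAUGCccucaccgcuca
The promoter windows of H19 and MALAT1, the 2 transcripts with the widest differences with siHOXB9, run from 250 bases before to 50 bases after the RefSeq start. They lie at chr11:2001217-2001516 on the reverse strand for H19 and, for the 2 starts of MALAT1, at chr11:65497488-65497787 and chr11:65498795-65499094 on the forward strand. The capitals mark TAAT, the core that many homeodomains bind, and TTTAC and TTTAT, which posterior HOX proteins also bind, on either strand (ATTA, GTAAA and ATAAA on the other), where matches may overlap.
H19: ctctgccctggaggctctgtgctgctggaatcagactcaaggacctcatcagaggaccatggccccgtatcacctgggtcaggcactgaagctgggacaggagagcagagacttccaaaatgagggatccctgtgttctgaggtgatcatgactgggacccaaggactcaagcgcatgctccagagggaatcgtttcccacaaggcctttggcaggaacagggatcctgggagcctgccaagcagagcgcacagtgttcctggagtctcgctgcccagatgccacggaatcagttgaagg
MALAT1 first start: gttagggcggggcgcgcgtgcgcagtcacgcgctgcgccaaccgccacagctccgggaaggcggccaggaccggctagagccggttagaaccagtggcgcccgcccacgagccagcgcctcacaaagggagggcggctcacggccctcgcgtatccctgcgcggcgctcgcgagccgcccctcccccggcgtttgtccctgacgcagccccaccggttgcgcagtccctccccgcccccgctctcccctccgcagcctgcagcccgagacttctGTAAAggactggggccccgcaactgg
MALAT1 second start: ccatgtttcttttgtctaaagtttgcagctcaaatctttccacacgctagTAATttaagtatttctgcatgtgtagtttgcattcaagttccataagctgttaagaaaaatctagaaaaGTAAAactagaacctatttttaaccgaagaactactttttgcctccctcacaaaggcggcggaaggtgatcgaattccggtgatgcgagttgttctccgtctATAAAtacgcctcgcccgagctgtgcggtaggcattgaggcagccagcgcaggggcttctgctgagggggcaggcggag
The H19 window held 0 matches to each of the 3 words. This window lies at an upstream start of the gene. The longest annotated H19 transcript has 2348 bases, so no exon can reach from this window to miR-675. Any H19 start closer to miR-675 was not examined, so the matches there are not known. The first MALAT1 window held 1 match to TTTAC alone, and the second held 1 match to each word. Among 35116 RefSeq promoter windows, 50.2% held TAAT, 28.1% held TTTAC and 34.9% held TTTAT on either strand, so the matches are common and describe only these letters. RefSeq windows were found for 6 of the 10 genes.

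The table gives FPKM, fragments per kilobase of transcript scaled to the sequencing depth, as computed by the authors, so levels of different genes are per length. Summed FPKM was 777152 to 831098 per library, and 12537 to 12770 rows reached 1 FPKM. The depth, estimated from the low values of genes with 1 transcript, was about 10610000 to 13030000 fragments. HOXB9 itself was at 0.218 FPKM in MKN1 siHOXB9, against 1.14 FPKM in MKN1 siScramble. In AGS it was at 4.44 FPKM with siHOXB9, against 16.4 FPKM with siScramble, so it was lower with siHOXB9 in both lines. The MKN1 levels of HOXB9 were near or under 1 FPKM. On the log2 scale with 1 FPKM added, its change was -0.81 in MKN1, less than 2-fold, and -1.68 in AGS. Of the epithelial markers, KRT8 and KRT18 were at 654 FPKM or more in all 4 libraries, while EPCAM was at 2.70 and 2.14 FPKM in MKN1, against 359 and 328 FPKM in AGS. The leukocyte marker CD3E was listed at 0 in all 4 libraries.

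GAS5 and H19 were the most abundant of the 10. In MKN1 both libraries gave the same order, which was GAS5, H19, PVT1, SNHG1, NEAT1, TUG1, MALAT1, HOTAIR, UCA1 and MEG3. The ranges of the 2 MKN1 libraries overlapped for TUG1 and MALAT1 and for MALAT1 and HOTAIR, so the order within these pairs is not set. In AGS the order began with H19 and GAS5, whose ranges overlapped, and went on with UCA1, NEAT1, SNHG1, PVT1, TUG1 and MALAT1, while HOTAIR was close to 0 and MEG3 was listed at 0. The 2 libraries of a line carry different siRNAs and are not replicates of a level. The share of the 10 transcripts in all FPKM of a library was 0.106% in MKN1 siHOXB9 and 0.117% in MKN1 siScramble, 0.125% in AGS siHOXB9 and 0.189% in AGS siScramble.

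**Figure D1:**
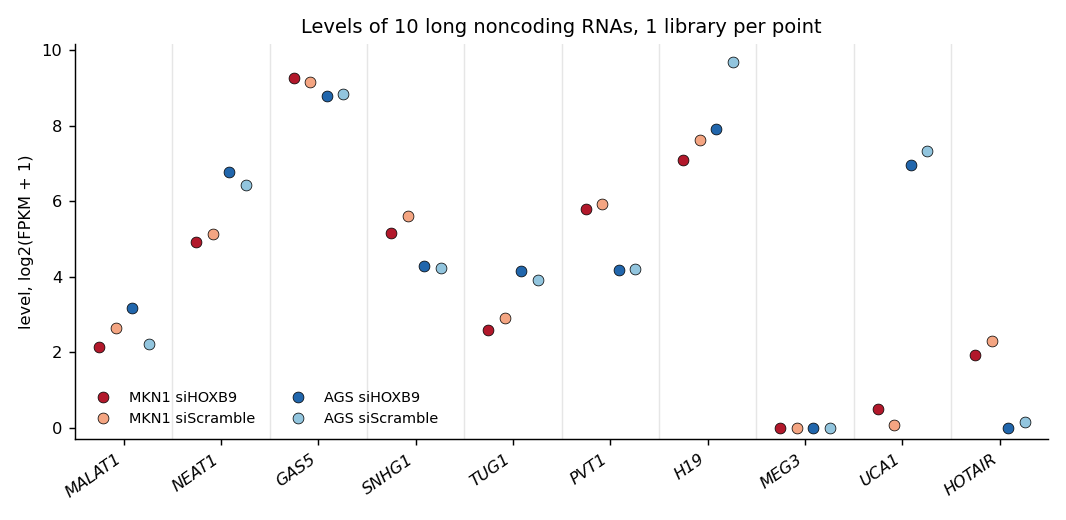
Level of each transcript on the log2(FPKM + 1) scale, 1 point per library, with MKN1 in red and AGS in blue and the siHOXB9 library in the darker shade. H19 in AGS siScramble (818 FPKM) is the highest point, UCA1 is high in both AGS libraries only, and MEG3 is at 0 in all 4.

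The first comparison asked which of these transcripts differed with siHOXB9 within a line, as part of the search for genes downstream of HOXB9. H19 was lower with siHOXB9 in both lines and had the widest difference of the 10 in AGS. In MKN1 H19 (-0.52) and MALAT1 (-0.51) were nearly level, and with 0.1 FPKM added MALAT1 (-0.62) was past H19 (-0.53). MALAT1 was higher with siHOXB9 in AGS and lower in MKN1, and NEAT1, TUG1 and SNHG1 had the same signs with smaller sizes. Wherever the transcripts reached 1 FPKM, only H19 and MALAT1 in AGS differed by 1.5-fold or more on this scale. GAS5, PVT1, UCA1 and HOTAIR were under that size, as were NEAT1, TUG1 and SNHG1 in both lines. A change within a line is log2 of siHOXB9 over siScramble with 1 FPKM added to both. A 2-fold size rule, a change of at least 1 in size, was applied within a line to rows that reached 1 FPKM with either siRNA. With 1 library per group no test was possible within a line.

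H19, an imprinted RNA of fetal tissues that returns in many tumours, was at 136 FPKM in MKN1 siHOXB9, against 197 FPKM in MKN1 siScramble. In AGS it was at 242 FPKM with siHOXB9, against 818 FPKM with siScramble. The siHOXB9 library thus held 69.4% of the control level in MKN1 and 29.5% in AGS, and the level in AGS siScramble stood far above the other 3 libraries. In bulk RNA, fewer expressing cells and less RNA per cell cannot be told apart. On the log2 scale the change was -0.52 in MKN1 and -1.76 in AGS, and 6.35% of the 13122 rows measured in MKN1 and 0.324% of the 13252 rows measured in AGS had a change as low or lower. H19 (ENSG00000130600.18, GRCh38 chr11:1995176-2001470, reverse strand) has 12 transcripts in GENCODE 29. H19 was the only one of the 8 transcripts measured in AGS that passed the size rule downward, where 2.21% of all rows did.

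MALAT1, the speckle RNA, was at 3.37 FPKM in MKN1 siHOXB9, against 5.23 FPKM in MKN1 siScramble. In AGS it was at 8.07 FPKM with siHOXB9, against 3.67 FPKM with siScramble. The AGS siHOXB9 library was the highest of the 4 and the MKN1 siHOXB9 library the lowest, so the siRNA groups overlapped. The change was -0.51 in MKN1 and 0.96 in AGS, and 1.91% of the rows measured in AGS had a change as high or higher. MALAT1 thus stayed just under the size rule in AGS, which 1.68% of rows passed upward, and it passed with a pseudocount of 0.1 FPKM (1.11), with libraries rescaled to a common total (1.04) and with changes centred on the median gene (1.01). Its levels were low beside most of the 10 in every library. MALAT1 (ENSG00000251562.8, chr11:65497688-65506516, forward strand) shares exon sequence with the antisense gene AP000769.2. The labels describe no step that keeps strand, so whether reads of the 2 strands were told apart is not known. The same limit holds for GAS5, TUG1, PVT1, UCA1 and MEG3, which also share exon sequence with genes on the opposite strand.

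NEAT1, the paraspeckle scaffold, was at 28.97 FPKM in MKN1 siHOXB9, against 34.1 FPKM in MKN1 siScramble, and at 109 FPKM in AGS siHOXB9, against 85.0 FPKM in AGS siScramble. The levels of the 2 lines did not overlap, and with siHOXB9 NEAT1 was lower in MKN1 (-0.23) and higher in AGS (0.36). The gene (ENSG00000245532.8, chr11:65422774-65445540, forward strand) has isoforms that share the 5′ part, so the single row does not separate the short form from the long form that builds paraspeckles. TUG1, a mostly nuclear RNA first described in the retina of the mouse, was at 4.98 FPKM in MKN1 siHOXB9, against 6.44 FPKM in MKN1 siScramble, and at 16.7 FPKM in AGS siHOXB9, against 14.0 FPKM in AGS siScramble. Its changes were -0.31 in MKN1 and 0.23 in AGS, again with no overlap of the lines.

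SNHG1, host of small nucleolar RNAs of the C/D box class, was at 34.9 FPKM in MKN1 siHOXB9, against 47.6 FPKM in MKN1 siScramble, and at 18.5 FPKM in AGS siHOXB9, against 17.7 FPKM in AGS siScramble. SNHG1 was lower with siHOXB9 in MKN1 (-0.44) and nearly level in AGS (0.06). GAS5, the host that accumulates in growth arrest, was at 607 FPKM in MKN1 siHOXB9, against 566 FPKM in MKN1 siScramble, and at 437 FPKM in AGS siHOXB9, against 452 FPKM in AGS siScramble. Its changes of 0.10 in MKN1 and -0.05 in AGS were the smallest of the 8 measured in MKN1 and, after PVT1, in AGS, where the sign turns to 0.05 with libraries rescaled to a common total and to 0.01 with centred changes. Of the small RNA genes annotated inside SNHG1, SNORD22, SNORD27, SNORD28 and SNORD30 have rows, and each was listed at 0 in all 4 libraries, so the host rows do not report the small RNAs.

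PVT1, the neighbour of MYC on chromosome 8, was at 54.6 FPKM in MKN1 siHOXB9, against 59.4 FPKM in MKN1 siScramble, and at 17.2 FPKM in AGS siHOXB9, against 17.3 FPKM in AGS siScramble. The libraries of a line were close to each other and the lines were far apart. Its change was -0.12 in MKN1, and the change of -0.01 in AGS turns to 0.08 with rescaled libraries, 0.05 with centred changes and 0.07 with quantile normalization. UCA1 was at 122 FPKM in AGS siHOXB9, against 160 FPKM in AGS siScramble, a change of -0.38. In MKN1 it was at 0.415 FPKM with siHOXB9, against 0.0426 FPKM with siScramble, which for its longest transcript of 2687 bases corresponds to about 10.7 and 1.19 fragments, too few for a fold. HOTAIR was at 2.77 FPKM in MKN1 siHOXB9, against 3.88 FPKM in MKN1 siScramble, a change of -0.37 that rests on an estimated 63.5 and 96.6 fragments. In AGS it was listed at 0 with siHOXB9, against 0.107 FPKM, an estimated 3.00 fragments, with siScramble. MEG3, a maternally expressed RNA often silenced in tumours, was listed at 0 in all 4 libraries, so no change could be given.

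**Figure D2:**
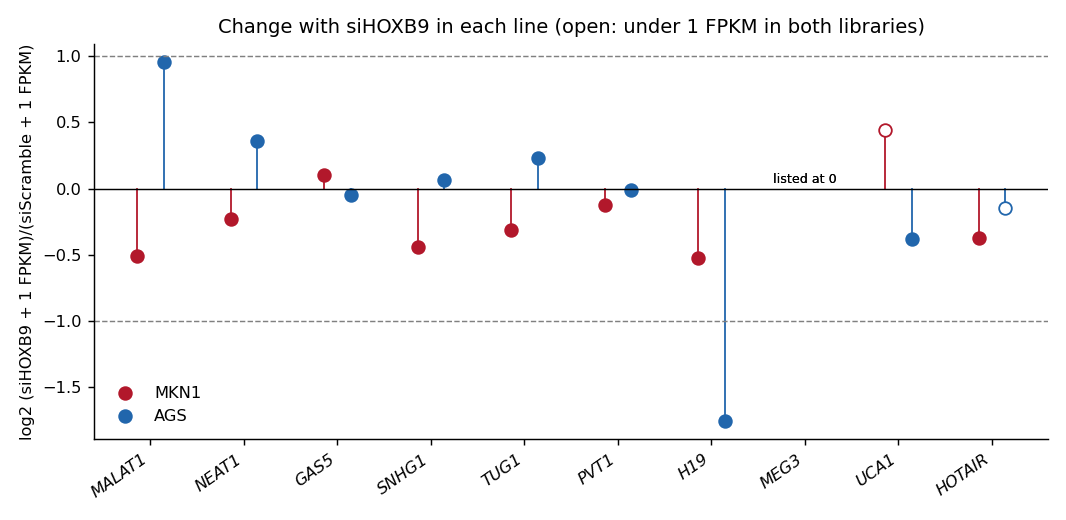
Change with siHOXB9 for each transcript in MKN1 (red) and AGS (blue), as log2 of siHOXB9 over siScramble with 1 FPKM added, with dashed lines at the 2-fold size rule. H19 in AGS (-1.76) is past the rule, MALAT1 in AGS (0.96) lies just inside it, and open points stayed under 1 FPKM in both libraries.

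Of the 10 transcripts 8 reached 1 FPKM in a library of MKN1, and 7 of these were lower and 1 was higher with siHOXB9, where 36.9% of all rows in MKN1 were lower and 63.1% higher. Their median change was -0.34, beside 0.09 over all 13122 rows, and 0 of 8 passed the size rule, where 4.05% of all rows did, 2.1% upward and 1.94% downward. In AGS, too, 8 reached 1 FPKM, with 4 higher and 4 lower, where 43.0% of all rows in AGS were higher and 57.0% lower. The median was 0.03, beside -0.06 over all 13252 rows, and 1 of 8 passed, where 3.89% of all rows did. Among rows that GENCODE 29 types as long noncoding RNA, 7.45% of 282 in MKN1 and 8.09% of 309 in AGS passed the size rule, with medians of 0.03 and -0.03.

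The lines were then set side by side. Of the 7 transcripts measured in both, 5 had changes of opposite sign, namely MALAT1, NEAT1, TUG1 and SNHG1, which were higher in AGS and lower in MKN1, and GAS5, which was the other way round. Across all 11547 rows measured in both lines 46.9% had opposite signs and 11.9% were higher in AGS and lower in MKN1. With changes of at least 0.1 in both lines, a selection made after the values were seen, 3 of 4 transcripts (MALAT1, NEAT1 and TUG1) were opposite, where 44.5% of such rows were. The difference between the lines in their response was not tested, since each response is 1 pair of libraries. The mitochondrial share of the summed FPKM moved with these 4 transcripts, at 0.470% in MKN1 siHOXB9 and 0.686% in MKN1 siScramble, and at 1.79% in AGS siHOXB9 and 0.988% in AGS siScramble, and its part in the result was not tested.

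**Figure D3:**
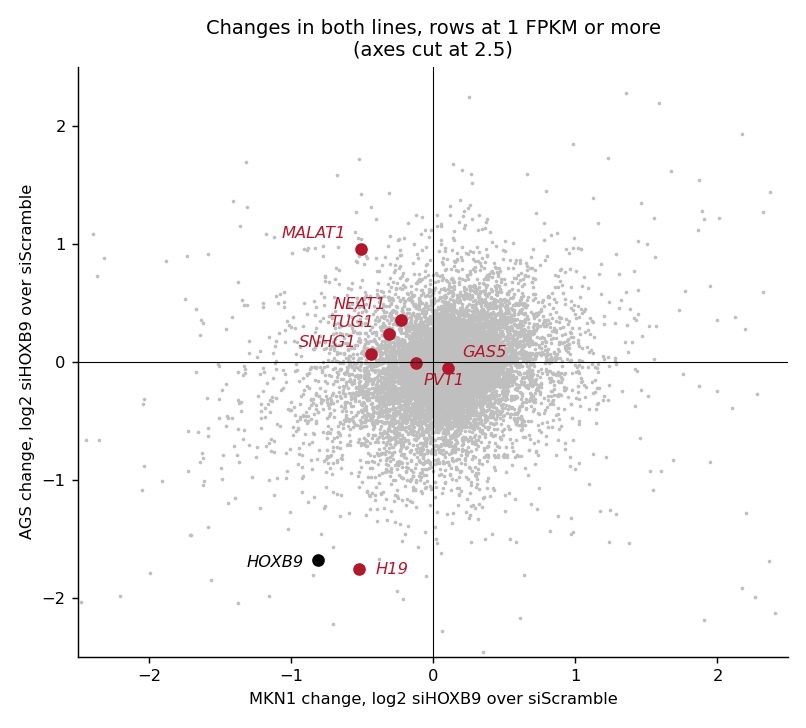
Change with siHOXB9 in MKN1 (x axis) and AGS (y axis), both as log2 of siHOXB9 over siScramble, for 11547 rows in grey, 7 of the transcripts in red and HOXB9 in black, with 36 rows beyond the axis limit of 2.5. MALAT1, NEAT1, TUG1 and SNHG1 lie at the upper left and H19 lies at the lower left near HOXB9.

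A joint test of the lines used limma on the log2 scale with 1 FPKM added, and modelled line and siRNA together over the 13758 rows that reached 1 FPKM in 2 or more of the 4 libraries. Its error joins how far the lines disagree for a row (1 residual degree of freedom) with a variance that limma estimates over all rows tested. That variance carries 6.17 prior degrees of freedom, so most of the weight in each SE comes from the other rows. The labels name no separate cultures, so the p-values measure only the spread between these libraries. In this fit 0 of 9 transcripts were called at an adjusted p under 0.05, where 0.00727% of all rows (1 row) were, and at an unadjusted p under 0.05 there was 1 of 9, H19, where 7.12% of all rows were. H19 was lower with siHOXB9 by an estimate of -1.14 on the log2 scale (SE 0.282, lower in both lines), with an unadjusted p of 0.00464 and a Benjamini-Hochberg adjusted p of 0.465 from limma. The estimates of the other 8 ran from -0.26 for HOTAIR (SE 0.214) to 0.22 for MALAT1 (SE 0.346), with adjusted p of 0.872 and 0.954 from limma. MALAT1, with opposite signs in the lines, had the widest SE of the 9.

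The second comparison asked how the levels of these transcripts differ between MKN1 and AGS, with the line term of the same fit, a call needing an adjusted p under 0.05 and a difference of at least 1 on the log2 scale. UCA1, NEAT1, H19 and TUG1 were lower in MKN1 than in AGS, and HOTAIR, PVT1 and SNHG1 were higher. Calls were made for 7 of 9 transcripts, where 37.1% of all rows were called. UCA1 and HOTAIR entered the fit only through the line in which they are high, so a difference was bound to follow. Of the other 7 transcripts, which had at least 1 FPKM in all 4 libraries, 5 were called, where 26.8% of 10746 such rows were.

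UCA1 had the widest difference, with 0.415 and 0.0426 FPKM in the MKN1 libraries against 122 and 160 FPKM in the AGS libraries, which is -6.86 on the log2(FPKM + 1) scale. That value depends on the added 1 FPKM and becomes -9.01 with 0.1 FPKM. NEAT1 averaged 31.5 FPKM over the 2 MKN1 libraries and 97.0 FPKM over the 2 AGS libraries, 3.07-fold more in AGS, with a difference of -1.58 (SE 0.200, adjusted p 0.000479 from limma). H19 averaged 167 FPKM in MKN1 and 530 FPKM in AGS, with a difference of -1.44 (SE 0.282, adjusted p 0.00378 from limma), and the siHOXB9 library of AGS, at 242 FPKM, lay much closer to MKN1 than the siScramble library did. TUG1 averaged 5.71 FPKM in MKN1 and 15.3 FPKM in AGS (-1.29, SE 0.225, adjusted p 0.00223 from limma).

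In the other direction, PVT1 averaged 57.0 FPKM in MKN1 and 17.2 FPKM in AGS, 3.31-fold more in MKN1, with a difference of 1.67 (SE 0.177, adjusted p 0.000202 from limma). SNHG1 averaged 41.3 FPKM in MKN1 and 18.1 FPKM in AGS (1.13, SE 0.201, adjusted p 0.00242 from limma). HOTAIR differed by 2.03 on the log2(FPKM + 1) scale and by 4.56 with 0.1 FPKM added, since AGS was at or near 0. GAS5 (0.40, SE 0.168, adjusted p 0.0768 from limma) and MALAT1 (-0.32, SE 0.346, adjusted p 0.455 from limma) were not called. When rows with low values were kept in the fit, NEAT1 (adjusted p 0.0609), SNHG1 (0.0754), TUG1 (0.0771) and H19 (0.152) lost the call in limma.

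The genes around these transcripts were listed for comparison. On chromosome 8, MYC was at 182 FPKM in MKN1 siHOXB9, against 154 FPKM in MKN1 siScramble, and at 114 FPKM in AGS siHOXB9, against 110 FPKM in AGS siScramble, so both PVT1 and MYC were more abundant in MKN1. In the HOXC cluster, HOXC10 was at 37.0 and 39.1 FPKM in MKN1 siHOXB9 and siScramble, and was listed at 0 in AGS siHOXB9, against 0.279 FPKM in AGS siScramble. HOXC11, whose span overlaps that of HOTAIR on the other strand with no shared exon, was at 8.15 and 6.13 FPKM in MKN1 siHOXB9 and siScramble and was listed at 0 in both AGS libraries. HOXC13 was present in both lines, at 20.6 and 16.2 FPKM in MKN1 and 4.26 and 5.26 FPKM in AGS, siHOXB9 first. HOXC12, the gene on the other side of HOTAIR, was listed at 0 in both MKN1 libraries and was at 0.0883 FPKM in AGS siHOXB9, against 0.375 FPKM in AGS siScramble, under 1 FPKM throughout. HOTAIR thus went with HOXC10 and HOXC11, and not with HOXC12, in being found in MKN1, and with siHOXB9 it was lower there (-0.37) while HOXC11 was higher (0.36) and HOXC10 nearly level (-0.08).

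IGF2, the paternally expressed partner of H19 in the same imprinted domain, was at 0.128 FPKM in MKN1 siHOXB9 and listed at 0 in MKN1 siScramble, and was at 0.232 FPKM in AGS siHOXB9, against 0.343 FPKM in AGS siScramble. H19 was thus abundant in both lines where the IGF2 row was near 0. IGF2 shares exons with INS-IGF2 on the same strand, and how reads over such genes were assigned is not known. The maternally expressed CDKN1C, a cell cycle inhibitor of the same chromosome region, went the other way between the lines, with 107 and 75.4 FPKM in MKN1 siHOXB9 and siScramble and 7.85 and 9.77 FPKM in AGS siHOXB9 and siScramble. MRPL23, a mitochondrial ribosomal protein gene next to H19, had changes of 0.16 in MKN1 and -0.34 in AGS. Among 15 imprinted genes, 6 of 8 measured were higher in MKN1 (median 0.22) and 4 of 5 were lower in AGS (median -0.27). Over all rows, 63.1% were higher in MKN1 and 57.0% lower in AGS. The size rule was passed by 0 of these imprinted genes, where 4.05% of all rows in MKN1 and 3.89% in AGS did. GRB10, a receptor adaptor, was at 19.9 FPKM in AGS siHOXB9, against 32.7 FPKM in AGS siScramble (-0.69). In the domain of MEG3, the genes DLK1, RTL1, MEG8 and MEG9 were all listed at 0 in all 4 libraries, as MEG3 was.

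**Figure D4:**
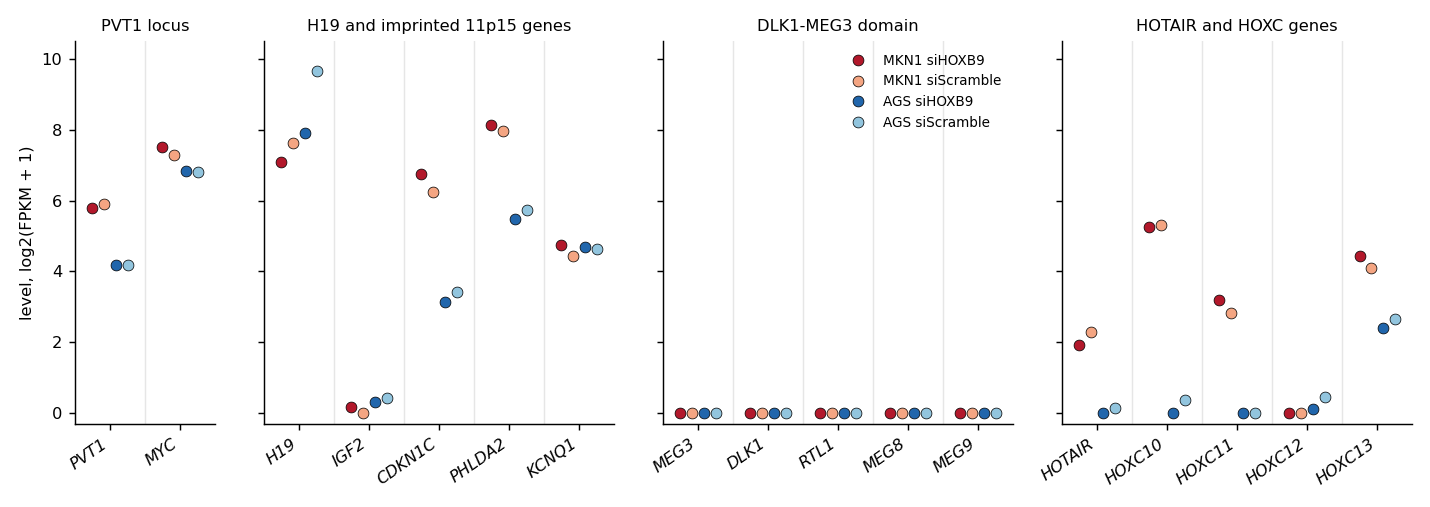
Levels on the log2(FPKM + 1) scale, 1 point per library, of PVT1, H19, MEG3 and HOTAIR beside genes of the same chromosome region. HOTAIR, HOXC10 and HOXC11 are seen in MKN1, H19 is high and IGF2 near 0 in all 4 libraries, and the DLK1-MEG3 genes are all at 0.

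FRMD8, a neighbour of NEAT1, had the opposite signs to it, with changes of 0.35 in MKN1 and -0.30 in AGS. Beside SNHG1, the amino acid transporter subunit SLC3A2 was at 830 FPKM in MKN1 siHOXB9, against 715 FPKM in MKN1 siScramble, and at 138 FPKM in AGS siHOXB9, against 175 FPKM in AGS siScramble. WDR74, a ribosome assembly factor next to it, had changes of 0.13 in MKN1 and -0.51 in AGS. The glucocorticoid receptor NR3C1, to which GAS5 RNA binds, was at 17.8 FPKM in MKN1 siHOXB9, against 14.6 FPKM in MKN1 siScramble, and at 2.97 FPKM in AGS siHOXB9, against 5.27 FPKM in AGS siScramble. MORC2, the neighbour of TUG1, had changes of -0.12 in MKN1 and 0.09 in AGS, and ZBTB37, the neighbour of GAS5, of -0.50 in AGS. In this list of neighbours and partners, 10 of 12 measured genes were higher in MKN1 (median 0.23), where 63.1% of all rows were, and 8 of 11 were lower in AGS (median -0.30), where 57.0% were. In either line 0 passed the size rule, which 4.05% of all rows in MKN1 and 3.89% in AGS did. LATS2, a Hippo pathway kinase, came closest, at 22.7 FPKM in MKN1 siHOXB9, against 11.4 FPKM in MKN1 siScramble (0.93).

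Other hosts of small nucleolar RNAs were measured beside GAS5 and SNHG1. In MKN1, 12 of 17 were higher and 5 lower (median 0.14), and in AGS 3 of 15 were higher and 12 lower (median -0.22), beside 63.1% of all rows higher in MKN1 and 57.0% lower in AGS. The size rule was passed downward by 2 of 17 in MKN1, where 1.94% of all rows did, and by 1 of 15 in AGS, where 2.21% did. SNHG9 was past it in both lines, at 14.8 FPKM in MKN1 siHOXB9, against 34.4 FPKM in MKN1 siScramble (-1.16), and at 3.41 FPKM in AGS siHOXB9, against 16.5 FPKM in AGS siScramble (-1.99). SNHG3, which shares exons with RCC1 on the same strand, was at 5.16 FPKM in MKN1 siHOXB9, against 14.8 FPKM in MKN1 siScramble (-1.36). EPB41L4A-AS1 was higher in MKN1 (0.62), and in AGS SNHG10 was lower (-0.78) and SNHG11 higher (0.67). SNHG1, lower in MKN1 and level in AGS, stood on the other side of this list's median in each line. Over both lines 0 of 17 hosts were called by limma, where 0.00727% of all rows were.

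A list of 40 further long noncoding RNAs studied in cancer had 36 with a row, 24 of them at 1 FPKM or more in any library. In MKN1, 13 of 21 were higher and 8 lower (median 0.11), near the 63.1% of all rows that were higher and their median of 0.09. The size rule was passed by 1, where 4.05% of all rows did, namely TP53TG1, a p53-induced transcript, at 10.1 FPKM with siHOXB9, against 2.04 FPKM with siScramble (1.87). In AGS 7 of 17 were higher and 10 lower (median -0.30), near the 43.0% of all rows that were higher, and 2 passed the size rule, both lower, where 2.21% of all rows did. DLEU2, the host of miRNAs in a region lost in leukaemia, was at 0.899 FPKM in AGS siHOXB9, against 3.17 FPKM in AGS siScramble (-1.14). LINC00152 (now CYTOR) was at 29.7 FPKM in AGS siHOXB9, against 63.6 FPKM in AGS siScramble (-1.08). MIR22HG, a stress-responsive host of miR-22, was at 15.7 FPKM in AGS siHOXB9, against 7.46 FPKM in AGS siScramble (0.98), with the opposite sign in MKN1 (-0.32).

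Genes of proteins in the nuclear bodies of MALAT1 and NEAT1 had small changes. Of 18 paraspeckle protein genes, 11 were higher and 7 lower in MKN1 (median 0.04). In AGS 2 were higher and 16 lower (median -0.11). Medians over all rows were 0.09 in MKN1 and -0.06 in AGS, and 57.0% of all rows were lower in AGS. The size rule was passed by 0 of the 18, where 4.05% of all rows in MKN1 and 3.89% in AGS did. TARDBP was at 48.9 FPKM in MKN1 siHOXB9, against 75.2 FPKM in MKN1 siScramble (-0.61), and HNRNPH3 at 112 FPKM in AGS siHOXB9, against 159 FPKM in AGS siScramble (-0.49). In AGS NEAT1 was thus higher (0.36) while most genes of its protein partners were slightly lower. Of 22 nuclear speckle and splicing factor genes, 12 were higher and 10 lower in each line (medians 0.01 in MKN1 and 0.04 in AGS). Over all rows, 63.1% were higher in MKN1 and 43.0% in AGS. SRSF5 was at 0.36 in AGS and SRRM1 at -0.45 in MKN1.

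Factors of nonsense-mediated decay, which degrades GAS5 and SNHG1 RNA, had medians of 0.01 in MKN1 and -0.01 in AGS over 16 genes. The size rule was passed by 0 of the 16, where 4.05% of all rows in MKN1 and 3.89% in AGS did. UPF1, the central helicase of this pathway, was at 78.7 FPKM in MKN1 siHOXB9, against 48.0 FPKM in MKN1 siScramble (0.70), with a change of 0.06 in AGS. UPF2 was also higher in MKN1 (0.41), while UPF3B was lower there (-0.57) and higher in AGS (0.26). In AGS SMG6 (-0.46) and MAGOHB (-0.40) were lower and SMG8 (0.31) was higher. Among genes of polycomb repressive complex 2, which HOTAIR RNA binds, 9 of 11 were higher in MKN1 (median 0.10) and 3 of 9 in AGS (median -0.04), beside medians over all rows of 0.09 in MKN1 and -0.06 in AGS and 63.1% and 43.0% of all rows higher in those lines. The accessory subunit JARID2 was at 7.02 FPKM in MKN1 siHOXB9, against 3.79 FPKM in MKN1 siScramble (0.74), and the catalytic subunit EZH2 was at 29.6 FPKM in AGS siHOXB9, against 20.1 FPKM in AGS siScramble (0.54). The size rule was passed upward by 1 of 11 polycomb genes in MKN1, where 2.1% of all rows did. In AGS 0 of 9 passed it, where 3.89% of all rows did. The 1 gene was PHF1, at 10.7 FPKM in MKN1 siHOXB9, against 0.311 FPKM in MKN1 siScramble (3.16). It shares exon sequence with CUTA on the opposite strand.

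**Figure D5:**
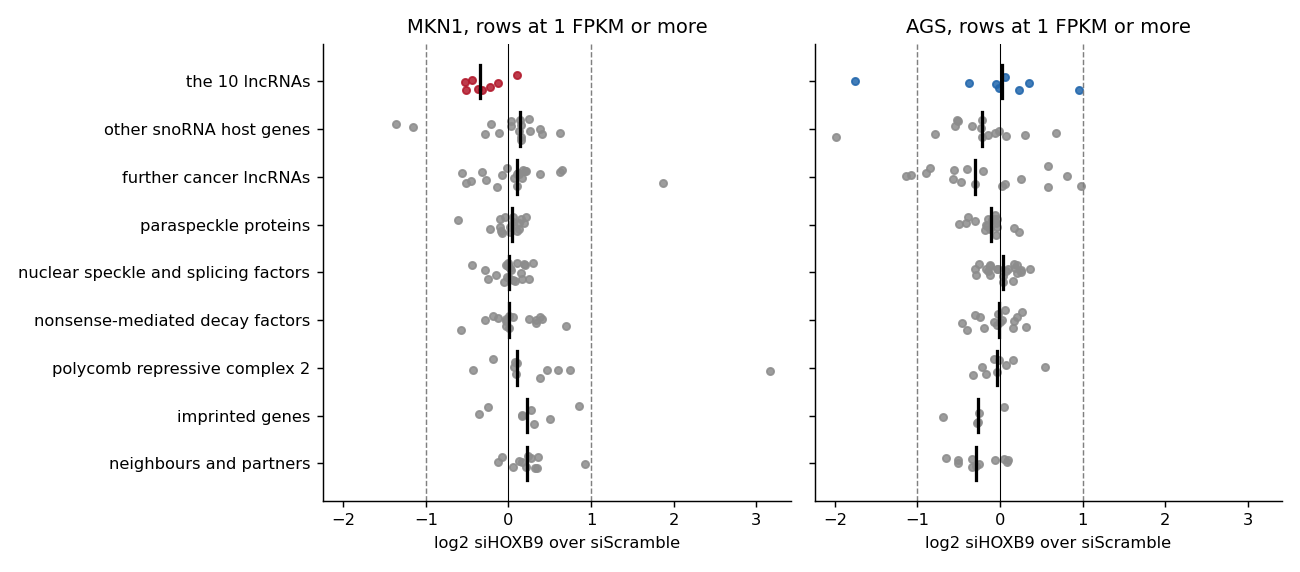
Change with siHOXB9 (log2) of each measured gene in MKN1 (left) and AGS (right), by list, with the 10 lncRNAs in colour at the top, black bars at the medians and dashed lines at the 2-fold size rule. The median of the lncRNAs is -0.34 in MKN1 and 0.03 in AGS. Medians of the paraspeckle, nuclear speckle, nonsense-mediated decay and polycomb lists run from -0.11 to 0.10. Those of the imprinted genes are 0.22 in MKN1 and -0.27 in AGS, and those of the neighbours and partners 0.23 and -0.30.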

How the data were processed

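Poly-T selected RNA of 4 libraries (AGS and MKN1, siScramble or siHOXB9, 1 library per group) was sequenced, per the labels. The title of 1 MKN1 library spells the line MNK1, while its other labels say MKN1. The deposited table holds FPKM values computed by the authors, 1 column per library, and the submitters' processing notes name GRCh38 and hg38. Aligner and counter: not given in the sources used here. No step that keeps strand is described in the labels.

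Changes were computed on log2(FPKM + 1) with a minimum of 1 FPKM. limma 3.58.1 in R 4.3.3 was fitted to all 4 libraries with an intensity trend, two-sided, with Benjamini-Hochberg adjustment at 0.05, and tested on simulated data. Depth was estimated from genes with 1 transcript, with 260 bases taken off the length, where 64.5% to 67.4% of low values lay within 0.05 of a whole fragment. Fragment numbers from it are estimates for the longest annotated transcript. Gene positions and shared exons came from GENCODE 29 by symbol.

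The transcripts and the 8 lists (160 names, 152 with a row, 3 of these under an older symbol) were chosen with earlier results of these data known. From each list up to 3 genes with the largest change per line were named, and the neighbours at 1 FPKM or more. HOXC10 in AGS, HOXC12, IGF2, DLK1, RTL1, MEG8, MEG9 and the genes under other observations were added after their values were seen. Alternatives tried were 0.1 FPKM as pseudocount, a filter of 5 FPKM or none, rescaled, centred or quantile-normalized libraries, a size rule of 1.5-fold, limma's robust option, limma without the trend, a fit lacking the line term and calls by adjusted p alone.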

Additional observations from a re-analysis of the deposited data

Results flagged for a closer look

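In 5 transcripts the libraries of the lines moved in opposite directions with siHOXB9, which was not tested, with 1 library per group in each line. The AGS change exceeded the MKN1 change by 1.47 on the log2 scale for MALAT1 (0.96 in AGS, -0.51 in MKN1). The same difference, AGS minus MKN1, was 0.584 for NEAT1, 0.546 for TUG1 and 0.501 for SNHG1. For GAS5 it was -0.152, from changes of -0.05 in AGS and 0.10 in MKN1, both near 0. Opposite signs were found in 46.9% of all 11547 rows measured in both lines.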

How the results depend on the processing

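The number of transcripts past the size rule in AGS, 1 in the main values (H19), became 2 (H19 and MALAT1) with a pseudocount of 0.1 FPKM, with libraries rescaled to a common total, with centred changes and with a size rule of 1.5-fold. In MKN1 it was 0 under each alternative. The number called between MKN1 and AGS, 7 of 9, became 3 (PVT1, UCA1 and HOTAIR) with no filter, and GAS5, always under the size of 1, reached adjusted p of 0.0199, 0.00641 and 0.0387 in limma with rescaled, centred and quantile-normalized libraries. Over both lines 0 of the transcripts were called by limma in each of the 10 fits, with H19 at an unadjusted p under 0.05 in all but those with no filter and with no line term. No called value turned its sign. The cause of these shifts was not tested. The joint fit sets siHOXB9 against siScramble within each line, and without the line term 0 of 9 were called as well. The labels give no replicate numbers for any further block, and leaving out a library leaves the joint fit with no residual degrees of freedom. Depth limits UCA1 in MKN1 and HOTAIR in AGS, each at an estimated 10.7 fragments or fewer. With changes of at least 0.1 in both lines, a choice made after the data were seen, as were all settings for the count of opposite signs, that count went to 3 of 4, against 5 of 7, and it was 5 or 6 under the others. All transcripts have several annotated isoforms, whose shares the table does not give.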

Other observations

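Further genes of the lists, picked after their values were seen, were found in MKN1 and near 0 in AGS, as HOTAIR was, the first 3 of them noncoding. HOTAIRM1, transcribed from the HOXA cluster, was at 9.03 and 7.66 FPKM in MKN1 siHOXB9 and siScramble and was listed at 0 in both AGS libraries. HOXA11-AS, from the same cluster, was at 5.39 and 6.05 FPKM in the same MKN1 order and listed at 0 in AGS. FENDRR, a transcript beside the mesodermal factor gene FOXF1, was at 3.61 and 5.80 FPKM in the same MKN1 order and listed at 0 in AGS. PEG10, a paternally expressed protein-coding gene, was at 61.9 and 55.1 FPKM in MKN1 siHOXB9 and siScramble, against 0.315 and 0.173 FPKM in AGS siHOXB9 and siScramble. In the opposite sense, LINC00657 (now NORAD), an abundant cytoplasmic RNA that binds Pumilio proteins, was at 26.2 and 24.0 FPKM in MKN1 siHOXB9 and siScramble, against 73.7 and 72.5 FPKM in AGS siHOXB9 and siScramble.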
